A study of Mus musculus with 8 samples.

Results

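Histone genes were compared between eosinophils sorted from the bone marrow and eosinophils sorted from the small intestine, as measured by bulk RNA sequencing. Members were the genes with a histone symbol (Hist1h to Hist4h, H1f, H2af, H2bf or H3f). The gene table carried the current nomenclature for most of them, in which Hist1h1e is H1f4 and H2afx is H2ax, and 25 genes matched in its own symbols. The same pattern was therefore also read in the GENCODE M21 symbols of the same Ensembl identifiers, which gave 80 of the 38392 genes in the table. Of these 80, 59 were replication-dependent genes, 15 were replacement variants and 6 were pseudogenes or an antisense RNA. Genes are given below by their symbol in the table.

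Histones are the proteins around which DNA is wound. H2A, H2B, H3 and H4 form the core of the nucleosome, and H1 binds the DNA that enters and leaves it. Replication-dependent genes sit in clusters, lack introns in most cases and are expressed in S phase, and their mRNAs normally end in a conserved stem-loop bound by SLBP in place of a poly(A) tail. Some of them can also give a longer, polyadenylated mRNA. Replacement variants such as H2A.Z, H3.3 and H1.0 come from polyadenylated mRNAs whose expression is not limited to S phase. Some of them take the place of the replication-dependent histones in cells that no longer divide. Eosinophils form in the bone marrow from dividing precursors, and the mature granulocyte does not divide.

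Both groups were female wildtype mice of the strain given as C57/BL6, with 4 libraries each. Bone marrow cells were sorted as CD11b+Ly6G-Ly6C-SiglecF+SSChi, and intestinal cells as CD11b+MHC-II-SiglecF+SSChi. According to the methods, the intestine was stripped of its epithelium, digested with enzymes and enriched on anti-CD11b beads, whereas marrow was flushed and sorted directly, so tissue and handling cannot be told apart. The paper describes its n values as biological replicates, and the sample titles give every library a different mouse number. The libraries of a tissue are therefore taken as separate mice, and p-values measure the spread between them. Which library belongs to which title is not given. Libraries are named by their table columns: BM_1, BM_3, BM_4 and BM_5 from bone marrow, and SI_6, SI_7, SI_10 and SI_11 from small intestine.

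The libraries held 11508002 to 21289164 reads in genes. The deposited values are variance-stabilised counts on a log2-like scale, and a difference below is the small intestine mean less the bone marrow mean on that scale. Normalised counts were recovered from the same values. Markers of other cells moved with the tissue. Of 8 eosinophil markers, 4 were higher and 4 lower in the small intestine, and they summed to 0.0325% to 0.0391% of bone marrow reads and 0.113% to 0.151% of intestinal reads. The 10 neutrophil precursor markers summed to 2.83% to 3.23% of bone marrow reads and 0.00310% to 0.00363% of intestinal reads, and 10 of 10 were lower there. Erythroid markers made 0.00642% to 0.00858% of bone marrow reads and 0.000262% to 0.000653% of intestinal reads. Of 10 intestinal epithelial markers, 9 were higher in the small intestine, at 0.0291% to 0.213% of reads against 0.00179% to 0.00381%, with the highest sum in SI_6. B and plasma cell markers made 0.0147% to 0.117% of intestinal reads, highest in SI_6, against 0.00217% to 0.00433% (3 of 8 higher, 2 lower). Macrophage and dendritic markers made 0.174% to 0.199% against 0.00585% to 0.00651%, with 6 of 8 higher and 0 lower. Most of these intestinal reads came from Adgre1 (mean 13672 normalised counts) and Itgax (14221). The others had intestinal means of 20.1 (Flt3) to 1301 (Csf1r), and Mrc1 and Flt3 were not called. Adgre1 is not particular to macrophages, since the paper identified human eosinophils by EMR1, the human protein of this gene. Whether the Adgre1 and Itgax reads came from eosinophils or from other cells was not tested. None of the markers was at 0 in every library. The part of these cells in the histone results was not tested, and fewer cells of a type and less RNA per cell cannot be told apart in bulk samples.

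The stem-loop was looked for first, because it distinguishes the replication-dependent mRNAs by sequence. The stem-loop pattern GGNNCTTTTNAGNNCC, where N is any base, was searched on the transcript strand in the first 100 annotated bases after the stop codon. It occurred in 28 of the 20213 genes with such a window of full length (0.139%), of which 23 were members, 4 had other histone symbols that were not analysed here and 1 was Lrrc75b. With shorter windows included, 41 members held the motif, 39 of them replication-dependent. Another 15 replication-dependent genes had too few annotated bases to be read, and 5 had a readable window without the letters (H2bc4, H2bc21, H4c1, Hist1h2bq and Hist1h2br). Windows of 30 bases are shown for 5 that the results below turn on, with the stem-loop in capitals, in GENCODE M21 on build GRCm38. They lie on the strand of the gene at chr13:23621775-23621804 (minus) for H1f4, chr13:23739505-23739534 (plus) for H1f2, chr13:23581943-23581972 (plus) for H4c4, chr11:58955165-58955194 (plus) for H2aw and chr9:44335233-44335262 (plus) for H2ax.
H1f4: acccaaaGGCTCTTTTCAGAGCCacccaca
H1f2: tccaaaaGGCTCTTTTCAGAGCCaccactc
H4c4: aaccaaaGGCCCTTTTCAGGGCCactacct
H2aw: caccaaaGGCTCTTTTCAGAGCCacccaca
H2ax: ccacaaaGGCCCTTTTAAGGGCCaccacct

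The form in H1f4, H1f2 and H2aw was the most frequent, in 22 members. The form in H4c4 was found in 7 members, all of them H4 genes. H2ax, a replacement variant, held a form found in no other member. The motif began 21 to 54 bases after the stop codon in the replication-dependent genes. H1f2 and H2aw, which were not lower in the small intestine (below), thus carried the same 16 letters as H1f4, which was.

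Replication-dependent histone mRNAs were lower in intestinal eosinophils in every histone type. By limma with adjustment over all 38392 genes, 50 of the 59 genes were lower in the small intestine, 1 was higher and 8 were not called, where 12.9% of all genes were called lower and 22% higher. The median difference of the 59 genes was -2.49, against 0.37 over all genes. For 49 of the 59 genes every small intestine library lay below every bone marrow library, as did 13.9% of all genes, and for 1 gene every one lay above, as did 20.3%. A mean of 10 reads or more was reached by 42 of the 59. In all, 6 had no read in any small intestine library, so that their ratios are bounds.

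All 10 H3 genes were lower, with a median difference of -2.86. Of 15 H2B genes, 12 were lower (median -2.71), and of 15 H2A genes 13 were lower and 1 was higher (median -2.35). Among H4 genes 11 of 13 (median -2.15) were lower, and among H1 genes 4 of 6 (median -1.87). By position, 51 of the 59 genes lie on chromosome 13 between 21715763 and 23934156, and 45 of these were lower and none higher, with a median of -2.68. On chromosome 3, 4 of 5 were lower. The 1 gene on chromosome 6, H4f16, was lower, and of the 2 on chromosome 11 H2aw was higher and H2bu2 was not called.

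Summed over the 59 genes, the share of reads was 0.159% in BM_1, 0.167% in BM_3, 0.147% in BM_4 and 0.148% in BM_5. In the small intestine it was 0.0285% in SI_6, 0.0266% in SI_7, 0.0391% in SI_10 and 0.0380% in SI_11. The tissues did not overlap, at 0.156% ± 0.00946 against 0.0330% ± 0.00642 (SD, n = 4 each), a ratio of 4.71. Without H1f4 and H1f2, which had the most reads in the marrow and in the intestine, the ratio was 11.9. The ratio by type was 19.6 for H3, 15.0 for H2A, 10.7 for H4, 9.16 for H2B and 2.82 for H1. The plot of read shares by histone type sets these beside the replacement variants, whose summed share averaged 0.219% ± 0.00857 in the marrow and 0.118% ± 0.0105 in the intestine.

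**Figure D1:**
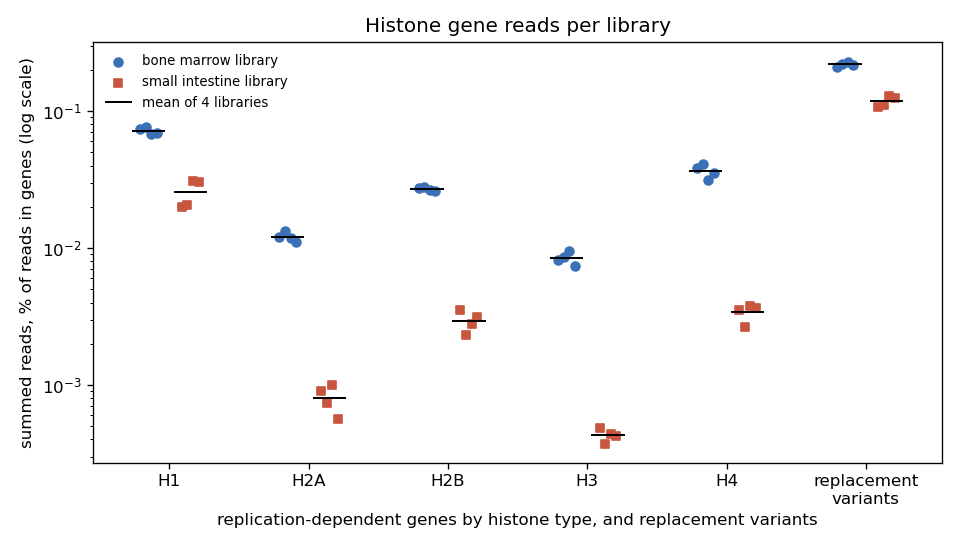
Summed reads of each histone type as a percentage of reads in genes, on a log scale; each point is a library (circles bone marrow, squares small intestine) and each line the mean of 4 libraries. The 4 intestinal libraries lie below the 4 bone marrow libraries in every set, with the widest gap for H3 (ratio 19.6) and a narrower one for H1 (ratio 2.82).

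Linker histone H1 had members on both sides. H1f4, which encodes H1.4, had 5752, 6236, 4899 and 5073 normalised counts in BM_1, BM_3, BM_4 and BM_5, and 1654, 1610.1, 1991 and 2388 in SI_6, SI_7, SI_10 and SI_11. All intestinal libraries were lower, with means of 5490 ± 619 and 1911 ± 361 (SD, n = 4 each), a difference of -1.53 ± 0.21 (SE) and an adjusted p of 0.000552. H1f5, which encodes H1.5, had 2226, 2127, 1792 and 1893 normalised counts in bone marrow in the same order, and 141, 56.9, 19.7 and 42.7 in small intestine. Its level was thus 30.9 times higher in bone marrow (difference -5.18 ± 0.49, adjusted p = 8.06e-05). SI_6, with the highest epithelial and the highest B and plasma cell marker sums, had the highest intestinal H1f5. Without SI_6 the difference was -5.64 ± 0.33, and the part of these cells was not tested.

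H1f2, which encodes H1.2, was not lower. It had 1160.0, 1168, 1139 and 966 normalised counts in bone marrow and 1146, 1488, 2582 and 2611 in SI_6, SI_7, SI_10 and SI_11. SI_7, SI_10 and SI_11 lay above every bone marrow library, and SI_6 alone lay within them, so the tissues overlapped. The difference was 0.74 ± 0.30 with an adjusted p of 0.0957. Without SI_6 it was 0.96 ± 0.24 and was called higher (adjusted p = 0.0208), and with each library centred on its own median it was -0.16. The epithelial marker sums were 0.213% of reads in SI_6, 0.0868% in SI_7, 0.0291% in SI_10 and 0.0387% in SI_11. For B and plasma cell markers they were 0.117%, 0.0828%, 0.0147% and 0.0428% in the same order. The part of these cells in this spread was not tested.

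The other H1 genes were H1f1 (difference -3.62 ± 0.26), H1f3 (-2.21 ± 0.22) and H1f6, the testis form, which had 1.19 normalised counts in each tissue and was not called. Set per kilobase of exon, H1f4 made 41.0% ± 1.26 of the replication-dependent H1 reads in the marrow and 41.9% ± 3.69 in the intestine (SD, n = 4 each). H1f5 made 39.0% ± 1.27 in bone marrow and 4.25% ± 4.14 in small intestine. H1f2 made 10.3% ± 0.85 in bone marrow, with 9.77% to 11.5% over libraries, and 51.1% ± 8.82 in small intestine, with 39.4% to 59.9%. The share of H1f4 overlapped between tissues, and those of H1f5 and H1f2 did not. Exons of 2 other genes overlap H1f4 in the annotation, and 28.4% of its 75-base stretches occur in other genes, so its reads could be shared with them.

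H2ac15 was the most abundant replication-dependent H2A gene per kilobase in bone marrow and had the largest fall of them on the deposited scale. It had 1019.8, 1139.9, 964 and 869 normalised counts in BM_1, BM_3, BM_4 and BM_5, and 46.9, 20.8, 18.6 and 10.7 in SI_6, SI_7, SI_10 and SI_11. The bone marrow level was 41.2 times the intestinal one, with a difference of -5.32 ± 0.36 and an adjusted p of 1.45e-05.

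H2aw, a gene of the smaller cluster on chromosome 11, was the single replication-dependent gene called higher. It had 31.4, 21.5, 8.61 and 27.0 normalised counts in bone marrow and 55.7, 77.7, 105 and 58.1 in small intestine. Every intestinal library was higher (difference 1.66 ± 0.37, adjusted p = 0.00814). The call depended on the scaling: the difference was 0.76 with an adjusted p of 0.199 when each library was centred on its median, and 1.08 with an adjusted p of 0.0617 under quantile normalisation. That median also moves with the number of genes that had reads. This number was 19713 (BM_4) to 30886 (BM_5) in bone marrow and 26624 (SI_11) to 33346 (SI_10) in small intestine. Exons of 2 other genes overlap H2aw in the annotation, and the strand setting of the counting is not given in the sources used here, so its reads could be shared with them.

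Among H2B genes, H2bc13 led per kilobase in bone marrow, with 1249, 1289, 1330.1 and 1092 normalised counts, and had 61.1, 27.7, 36.1 and 41.5 in SI_6, SI_7, SI_10 and SI_11. All intestinal libraries were far below (difference -4.82 ± 0.25, adjusted p = 3.42e-06). H2bc12 fell most among the H2B genes called, from 192 to 4.74 mean normalised counts (difference -4.93 ± 0.45, adjusted p = 6.63e-05). In its case SI_6 had 14.2 normalised counts and the other intestinal libraries 1.19 to 2.19, and without SI_6 the difference was -5.42 ± 0.15.

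H2bc4 and H2bc21 were not called. H2bc4 had 93.5, 88.0, 85.2 and 79.0 normalised counts in bone marrow and 198, 90.1, 124 and 110 in SI_6, SI_7, SI_10 and SI_11, and had the highest level per kilobase of its kind in the intestine (113 normalised counts per kilobase, against 109 for H2bc13). The tissues overlapped for H2bc4 (difference 0.52 ± 0.26, adjusted p = 0.167), and the sign turned to -0.38 with median centring. H2bc21 had 77.2 to 101 normalised counts in bone marrow and 51.3 to 136 in small intestine, with a difference of -0.06 ± 0.29 (adjusted p = 0.898). Both are among the 5 readable genes without the stem-loop letters, and both have long annotated 3′ ends of 742 and 2192 bases.

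The largest fall of all members was that of H3c8, an H3 gene, which was also the most abundant replication-dependent H3 gene per kilobase in bone marrow. It had 379, 363, 322 and 350.5 normalised counts in bone marrow and 7.64, 4.16, 1.09 and 2.37 in SI_6, SI_7, SI_10 and SI_11. The ratio was 92.7 and the difference -5.77 ± 0.31 (adjusted p = 4.36e-06). H3c6, the H3 gene of this kind with the highest intestinal level per kilobase, fell from 187 ± 27.7 to 24.7 ± 7.82 normalised counts (difference -2.78 ± 0.24, adjusted p = 4.98e-05).

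H4c4 carried most of the H4 reads. It had 4169, 4639, 3150.1 and 3559.7 normalised counts in bone marrow and 406, 286, 414 and 465 in small intestine. Each intestinal library was lower, with a difference of -3.30 ± 0.23 and an adjusted p of 1.50e-05. H4c11 had the largest fall among the H4 genes on the deposited scale, from 231 to 11.9 mean normalised counts (difference -3.96 ± 0.23, adjusted p = 6.20e-06). H4c2 and Hist1h4m, the H4 genes that were not called, had means of 1.38 and 1.5 reads. The remaining uncalled genes, H2ac7 and H2bu2, had 1.38 mean reads each. With each library centred on its median, H4c2, Hist1h4m, H2ac7 and H2bu2 were called lower.

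**Figure D2:**
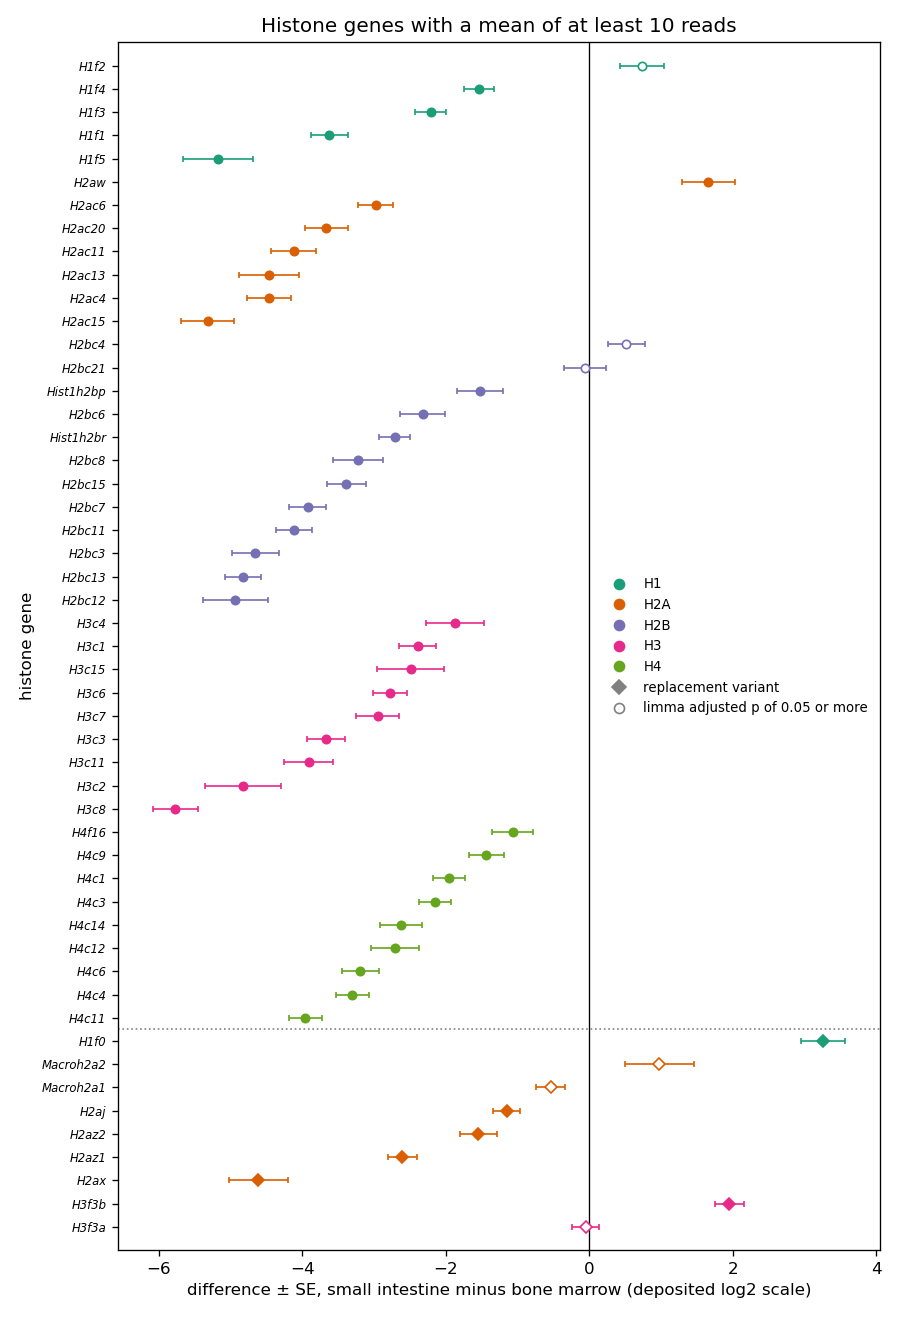
Difference ± SE (small intestine less bone marrow, deposited log2 scale) of the 42 replication-dependent and 9 replacement genes averaging 10 or more reads, coloured by histone type; open symbols did not pass the limma threshold of 0.05. Replication-dependent genes lie from -5.77 (H3c8) to 1.66 (H2aw), and the replacement variants below the dotted line from -4.61 (H2ax) to 3.26 (H1f0).

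Of the 9 genes that were not lower, those averaging 10 or more reads had long annotated 3′ ends. They are H1f2, H2aw, H2bc4 and H2bc21, with 880, 1700, 742 and 2192 annotated bases after the stop codon. The other 5, all with fewer reads, have 52 (Hist1h4m), 77 (H4c2), 89 (H2ac7), 213 (H2bu2) and 230 (H1f6). Of the 15 genes with at least 500 such bases, 11 were lower and 1 higher (median difference -2.15). Of the 44 genes with fewer, 39 were lower and none higher (median -2.74). The limit of 500 bases was chosen after the values were seen. Over all 59 genes Spearman's rho between these bases and the difference was 0.33, and over the 42 with 10 or more mean reads it was 0.70. These are descriptions across genes, which share libraries, a cluster and stretches of sequence, and the annotated length is that of the gene model and not of the mRNA in these cells. In 11 of the genes there was no annotated base after the stop codon.

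**Figure D3:**
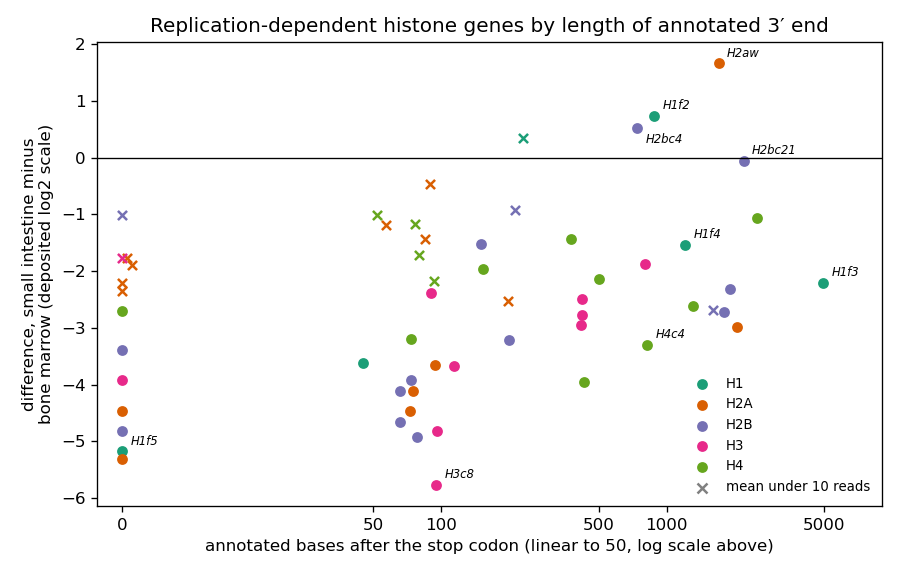
Difference of each of the 59 replication-dependent genes (vertical axis, deposited log2 scale) against the annotated bases after its stop codon (horizontal axis, linear to 50 bases and logarithmic above), coloured by histone type; crosses have a mean under 10 reads. H2aw, H1f2, H2bc4 and H2bc21 lie highest among the genes with more reads, all with more than 500 bases, while H3c8 (-5.77) and H1f5 (-5.18) have short annotated ends.

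Genes with and without the stem-loop letters were both among those that fell. Of the 39 replication-dependent genes with the letters, 32 were lower and 1 higher, of the 5 without them 3 were lower, and of the 15 that could not be read 15 were lower. Among those averaging 10 or more reads, 27 of 29 with the letters were lower and 1 higher (median difference -2.95). Without them 2 of 4 were lower (median -1.01), and of those that could not be read 9 of 9 (median -4.47). In that class 28.6% of all genes were lower and 34.6% higher. The genes without the letters are too few to say whether stem-loop status goes with the fall. Near-identical copies limit the values of single genes, since 54 of the 59 genes shared at least one stretch of 75 bases, about the read length, with another gene. Of the 33 genes with under 50% of their stretches shared, 27 were lower and 1 higher, and of the 26 with more, 23 were lower. Of the 5 genes with no shared stretch (H1f1, H1f5, H1f6, H2bc21 and H4c14), 3 were lower. Summed over the 26 genes with under 50% shared and no overlapping gene, the ratio of bone marrow to small intestine was 4.14.

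Promoter letters were read in the 300 bases around each start site in RefSeq (GRCm38.p6), on both strands, for the 53 replication-dependent genes that matched. CCAAT was present in 6 of 6 H1, 14 of 14 H2A, 13 of 13 H2B and 8 of 8 H3 promoters but in 3 of 12 H4 promoters, against 41.1% of all 27025 promoters. Of the 14 replacement promoters that matched, 10 also held CCAAT (71.4%). TATAAA was present in 33 of the 53 (62.3%, against 15.7% of all promoters) and in 1 of the 14 replacement promoters that matched. The octamer ATTTGCAT, a binding sequence of OCT1, occurred in 6 of 14 H2A (42.9%) and 5 of 13 H2B promoters (38.5%), against 1.97% of all promoters, and in none of the H1, H3 or H4 promoters of replication-dependent genes. In 2 head-to-head pairs of an H2A and an H2B gene, both promoters held the same octamer. They are H2ac12 with H2bc12 (chr13:22035780-22035809) and H2ac8 with H2bc8 (chr13:23571330-23571359), shown on the strand of the H2B gene with the octamer in capitals.
H2bc12: catttcactttATTTGCATacgaagttcta
H2bc8: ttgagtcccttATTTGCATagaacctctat

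Both genes of each pair were lower in the small intestine. H2ac12 had 2.79 to 6.13 normalised counts in bone marrow and no read in small intestine (difference -1.89 ± 0.21), where its neighbour H2bc12 had 181 to 211 and 1.19 to 14.2. H2ac8 had 11.2 to 17.0 in bone marrow and 0 to 2.18 in small intestine (difference -2.53 ± 0.37), and H2bc8 had 71.6 to 157 and 4.38 to 14.2 (difference -3.22 ± 0.35). Of the 12 members with an octamer, 10 were lower in the small intestine, and H2aw and the replacement variant H3f3b were higher. This is near the share of all 59 replication-dependent genes that were lower (84.7%). Of all genes, 12.9% were lower and 22% higher.

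The replacement variants moved both ways. Of 15, 4 were lower (H2ax, H2az1, H2az2 and H2aj) and 2 were higher (H1f0 and H3f3b), against 12.9% and 22% of all genes. The median difference was 0.40 over the 15, near that of all genes (0.37), and -0.54 over the 9 genes averaging 10 or more reads. The other 6, H1f7, H1f8, H1f10, H2ab1, H2ab2 and H2bfm, had at most 2 mean reads and were not called.

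H2ax encodes H2A.X, which is phosphorylated at DNA breaks, and its mRNA can end in a stem-loop or a poly(A) tail. It had 2987, 2766, 2569 and 2771 normalised counts in bone marrow and 255, 115, 56.9 and 85.3 in SI_6, SI_7, SI_10 and SI_11. The level was 21.6 times higher in bone marrow (difference -4.61 ± 0.41, adjusted p = 5.64e-05). SI_6 was again the highest intestinal library, and without it the difference was -5.01 ± 0.24.

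H2az1, which encodes H2A.Z.1, was the most abundant member per kilobase in bone marrow. It had 18029.6, 19723, 18981 and 18155 normalised counts in bone marrow and 3432, 2765, 2513 and 3756 in small intestine. All intestinal libraries were lower (difference -2.60 ± 0.20, adjusted p = 2.35e-05). Its paralogue H2az2 fell from 416 to 578 normalised counts in bone marrow to 119 to 220.5 in small intestine (difference -1.54 ± 0.25, adjusted p = 0.00161), and H2aj, the H2A.J gene, from 348 ± 32.8 to 155 ± 22.1 (difference -1.15 ± 0.19, adjusted p = 0.00170).

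H1f0 encodes H1.0, the linker histone known from cells that have stopped dividing. It had 235, 370.4, 164 and 142 normalised counts in BM_1, BM_3, BM_4 and BM_5, and 1835, 2043, 2124 and 2305 in SI_6, SI_7, SI_10 and SI_11. Every intestinal library was higher, with a ratio of 9.11, a difference of 3.26 ± 0.31 and an adjusted p of 7.80e-05. Per kilobase, H1f0 made 1.54% ± 0.55 of the H1f0 and replication-dependent H1 reads in the marrow and 30.2% ± 3.61 in the intestine.

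The H3.3 protein comes from both H3f3a and H3f3b. H3f3b had 2742, 2701, 2788 and 2202 normalised counts in bone marrow and 8006, 9781, 11934 and 10933 in SI_6, SI_7, SI_10 and SI_11. The tissues did not overlap, and the difference was 1.95 ± 0.20 (adjusted p = 0.000132), which was not called when libraries were centred on their medians (1.05, adjusted p = 0.0626). H3f3a had 737 to 844 normalised counts in bone marrow and 676 to 951 in small intestine, with a difference of -0.05 ± 0.19 (adjusted p = 0.852). H3f3b made 79.5% ± 1.23 of the H3f3a and H3f3b reads per kilobase in bone marrow and 93.9% ± 0.909 in small intestine.

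The macroH2A variants were not called. Macroh2a1 had 3373, 3332, 3364 and 2805 normalised counts in bone marrow and 2003, 2040.0, 1989.9 and 2915 in small intestine, so SI_11 lay above BM_5 (difference -0.54 ± 0.20, adjusted p = 0.0714). It was called lower without BM_5 (-0.60, adjusted p = 0.0312) or without SI_11 (-0.67, adjusted p = 0.0126), and likewise with each of the 5 other models, scalings and filters tried. Macroh2a2 had 2.87 to 21.5 normalised counts in bone marrow and 14.2 to 33.9 in small intestine (difference 0.97 ± 0.48, adjusted p = 0.163).

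The make-up of the H3 reads differed between the tissues. Per kilobase of exon, H3f3a and H3f3b made 37.6%, 36.4%, 36.6% and 37.8% of all H3 reads in BM_1, BM_3, BM_4 and BM_5, and 96.3%, 97.7%, 97.8% and 97.5% in SI_6, SI_7, SI_10 and SI_11. H2az1 and H2az2 together made 74.9% ± 1.70 of the H2A.Z and replication-dependent H2A reads per kilobase in bone marrow and 93.0% ± 2.25 in small intestine. These shares are of reads counted by the authors, and H3 genes absent from the table were not analysed here. Exon lengths are those of the gene models, with 3504 bases for H3f3a, 2976 for H3f3b and 411 to 1261 for replication-dependent H3 genes. Shared stretches made 23.1% of H3f3a, 3.4% of H3f3b and 22.1% to 93.5% of those genes, so reads may not be counted alike. The H1 shares above also rest on gene models, of 743 bases for H1f5 and 7425 for H1f3.

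**Figure D4:**
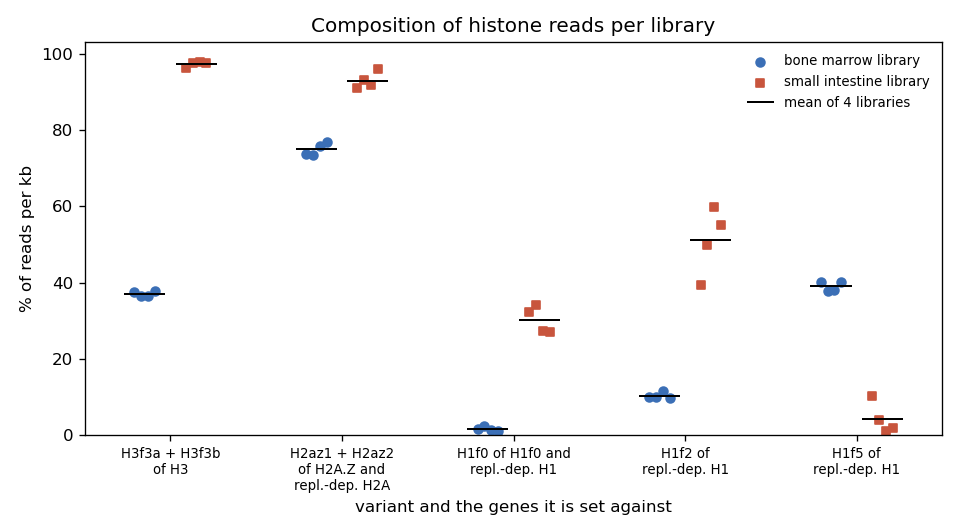
Share of each variant in the reads per kilobase of annotated exon of the genes named under it, in percent. Each point is a library (circles bone marrow, squares small intestine) and each line the mean of 4 libraries. H3f3a and H3f3b rise from 37.1% to 97.3% of H3 reads, H1f0 from 1.54% to 30.2% and H1f2 from 10.3% to 51.1%, while H1f5 falls from 39.0% to 4.25%.

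By level per kilobase, the order in bone marrow was H2az1 (10542 normalised counts per kilobase), H4c4 (3409), H2bc13 (3255), H1f4 (2845), H1f5 (2705), H2ac15 (2540) and H2ax (2004). In small intestine it was H3f3b (3415), H2az1 (1755), H1f2 (1254), H1f0 (1011), H1f4 (990.0), H4c4 (345) and Macroh2a1 (329). Of the first 7 genes, 5 were replication-dependent in bone marrow and 3 in the intestine.

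The genes that act on histone mRNA were lower for the most part. Of 27 measured genes of histone mRNA transcription and processing, 21 were lower and 1, the terminal uridylyltransferase Tut7, was higher (median -1.11). All 27 averaged 10 or more reads, a class in which 28.6% of genes were called lower and 34.6% higher. Slbp, whose protein binds the stem-loop, had 1513 to 1818 normalised counts in bone marrow and 489 to 614 in small intestine (difference -1.60 ± 0.18, adjusted p = 0.000200). Npat, the activator of the histone clusters, had a difference of -1.29 ± 0.18, and Casp8ap2, which encodes FLASH, -1.58 ± 0.21. Of the U7 snRNP proteins, Lsm10 had a difference of -1.40 ± 0.22 and Lsm11 of -0.60 ± 0.18, and the latter was lost without BM_4 (adjusted p = 0.0706). Zfp473, the ZFP100 gene, was not called (-0.63 ± 0.42, adjusted p = 0.293). The largest falls of this list were those of Mblac1 (-4.02 ± 0.49), a nuclease of histone pre-mRNA, and of the S phase activators E2f2 (-3.76 ± 0.49) and E2f1 (-3.39 ± 0.20).

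Most histone chaperones were lower. Of 29 measured, 19 were lower and 1, Srcap, was higher (median -1.82), against the same 28.6% and 34.6%, and 28 of the 29 were in that class. Asf1b had 595 to 800.0 normalised counts in bone marrow and 11.9 to 25.1 in small intestine (difference -4.95 ± 0.24). Chaf1a and Chaf1b, subunits of the CAF-1 complex that deposits H3 and H4 behind the replication fork, had differences of -4.50 ± 0.34 and -2.56 ± 0.21, and Nasp, which carries H3 and H4, of -2.61 ± 0.26. For the H3.3 chaperones the differences were -1.19 ± 0.20 for Hira and -1.10 ± 0.18 for Daxx, both called, and -0.36 ± 0.18 for Atrx, which was not (adjusted p = 0.181) but was called lower with each of those 5 settings. The sizes of these falls were not tested against each other.

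Among 29 genes of S phase and proliferation, 28 were lower and none higher (median -3.83), again with 28 in the class of which 28.6% were lower and 34.6% higher. Mki67, the Ki-67 gene, had 28552 to 32210 normalised counts in bone marrow and 2499.8 to 5578 in small intestine, with a difference of -3.11 ± 0.28. The largest falls of this list were those of Rrm2 (-6.42 ± 0.41), Uhrf1 (-5.45 ± 0.50) and Dut (-4.61 ± 0.32), followed for the usual markers by Top2a (-4.06 ± 0.43) and Pcna (-3.19 ± 0.22). Of 3 variants outside the symbol rule, 1 was lower, the centromeric Cenpa (-1.45 ± 0.19). The list of histone acetylation and deacetylation also held Padi4, which encodes a deiminase of histones. Of its 24 measured genes, all averaging 10 or more reads, 7 were lower and 7 higher (29.2% each, median -0.02). These shares are near the 28.6% and 34.6% of all such genes. Hdac5 (3.19 ± 0.26) and Hdac11 (2.96 ± 0.67) had the largest rises and Hdac2 (-2.13 ± 0.22) the largest fall.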

How the data were processed

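RNA of sorted cells was converted to cDNA with the NuGEN Ovation RNA-Seq System v2 and sequenced from a single end. According to the methods, reads were processed with nf-core/rnaseq on GRCm38, and the authors deposited variance-stabilised values from DESeq2 (R 4.0.3) on a log2 scale for 38392 genes. Neither the aligner, nor strand settings, nor how multi-mapping reads were counted is given in the sources used here.

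The transformation was inverted from its lowest value (0.92971568). All values came out as whole reads within 0.05, and these reads were divided by the size factors (0.721 to 1.53) for normalised counts. Genes with a mean under 10 reads are the least precise. The tissues were compared with limma 3.58.1 (R 4.3.3) on the deposited log2 values of all genes, with Benjamini-Hochberg adjustment and a threshold of 0.05, and the code was tested on simulated data. Coordinates, exon lengths and 3′ windows come from GENCODE M21, in which 38392 identifiers were found and 38000 had the same symbol. Columns name the tissue of a library but no single sample.

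Members and gene lists were chosen with earlier results of these data known. Genes were named by rule: per histone type the replication-dependent genes with the highest level in each tissue and the largest called rise and fall, replacement variants with a mean of at least 10 reads, and per list the 3 largest called differences besides known factors. H1f1, H1f3, H1f6, H2bc21, H4f16, the octamer pairs, members of small groups, Tut7 and Srcap were named after their values were seen. The listed symbols Ars2, Zcchc6 and Hils1 had no matching row. Ars2 and Zcchc6 are older symbols of Srrt and Tut7, which were on the same list and were measured. Hils1 was not analysed here. A gene that the rule names is not reported here.

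Alternatives were a trended prior, limma voom on the recovered reads, median centring, quantile normalisation, a filter at a mean of 10 reads, each library left out in turn, and narrower lists. Ratios to genes without reads use a floor of 3 reads over the group. Pairs of libraries with the same number do not exist.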

Additional observations from a re-analysis of the deposited data

Results flagged for a closer look

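In 11 of 114 groups of 4 libraries, the highest or lowest library stood apart by more than Dixon's 95% critical value (the gap to the nearest other library divided by the range of the group). Chance gives about 1 such group in 20. In bone marrow, BM_5 was lowest for H1f2 (0.866; 9.92 against 10.16 to 10.19 on the deposited scale), H3f3b (0.864), Macroh2a1 (0.934) and Dut (0.833), and BM_4 was lowest for Rrm2 (0.906) and highest for Lsm11 (0.869). In the small intestine, SI_6 was lowest for Hdac5 (0.862) and highest for Hdac2 (0.84) and Nasp (0.945), SI_11 was highest for Macroh2a1 (0.935) and SI_10 for Lsm11 (0.83). Of the 42 replication-dependent genes averaging 10 or more reads, 24 were lowest in BM_5 among the bone marrow libraries and 17 highest in SI_6 among the intestinal ones. The cause was not tested.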

How the results depend on the processing

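No paired analysis was possible because no number occurs in both sets of columns. Of the 50 replication-dependent genes called lower, 47 were lower under every setting that included them, and 3 were not: H2bc1 was lost without any library but BM_3 (adjusted p of 0.0812 to 0.113), with a trended prior (0.0674), with voom (0.155) and with quantile normalisation (0.0580), H4f16 without BM_1, BM_4, SI_7 or SI_10 (-1.05 to -0.93) and Hist1h2ap without SI_10 (-1.10), with a trended prior (adjusted p = 0.0582) and with voom (0.0570). With a library left out, 47 to 51 of the 59 genes were lower, 1 to 2 higher (2 without SI_6), and 2 to 3 replacement variants were higher. The count of replication-dependent genes called higher was 2 with a trended prior, with voom and with the filter at 10 reads (H1f2 joined H2aw), and 0 with median centring and with quantile normalisation. Replacement variants called higher were 4 with voom and 1 with median centring, which moved the median of all genes from 0.37 to -0.53 and gave 10216 lower and 4285 higher genes in all, with 2 genes of the context lists higher. Differences reversed for H1f2 (-0.16) and H2bc4 (-0.38) with median centring and for H3f3a without SI_6 (0.0057). By construction, narrower lists gave fewer calls: 32 lower with the stem-loop, 3 lower and 0 higher with no shared stretch, and, chosen after seeing the data, 7 lower and 0 higher among the Hist symbols of the table, 11 lower with at least 500 bases after the stop codon, 0 higher with fewer, and 21 lower and 0 higher with few shared stretches and no overlap. The summed ratio was 11.9 without the genes with most reads and 4.42 to 5.02 with a library left out. Of 41 named genes called, 37 kept direction and call throughout.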
